A study of Mus musculus with 35 samples.

Results

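The subunits of RNA polymerases I, II and III were followed in CD8+ cytotoxic T lymphocytes (CTLs) held at different pH. The members are the protein-coding genes whose symbol starts with Polr1, Polr2 or Polr3 and a further letter. There were 28 such genes among 48709 genes in the count tables, of which 21695 were protein-coding. The rule names the genes by symbol and uses no measured value. Of the 28 members, 3 belong to Pol I, 8 to Pol II and 10 to Pol III, and 7 are shared between enzymes. A further symbol, Polr2k-ps, belongs to a pseudogene and was left out. The study asked how acidity acts on the response of CTLs to IL-2, the cytokine on which these cells depend for growth.

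The study's methods name OT-I and OT-3 mice, which carry transgenic receptors for ovalbumin, and C57BL/6 mice as sources of splenocytes. Neither the labels, which give CD8+ T cells, nor the account of the sequencing says which strain these libraries came from. Splenic CD8+ T cells were activated with anti-CD3 and anti-CD28 antibodies. They were then expanded with murine IL-2 until they were effector CTLs, so every group had seen IL-2 before the assay. RNA was sequenced in 7 groups of 5 libraries, numbered 1 to 5 in the labels, which makes 35 in all. A group at 0 h was taken at the start of the assay. The other 6 groups spent 24 h in culture at a pH of 7.4, 7 or 6.6, either without IL-2 or with the cytokine at 200 IU/mL. The medium was low-glucose DMEM with serum, and the methods name hydrochloric acid as the means of lowering its pH. Dead cells were removed on Ficoll before RNA was extracted, so the libraries represent the cells that survived each condition. The age and sex of the mice behind these libraries are not given in the sources used here, nor is it said whether a number marks 1 culture. The p-values below therefore rest on the spread between these libraries that remains after group and library number are fitted.

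RNA polymerases copy DNA into RNA, and nuclei of animal cells hold 3 such enzymes. Pol I makes the long precursor of ribosomal RNA, Pol II makes messenger RNA, and Pol III makes transfer RNA, 5S ribosomal RNA and other short RNAs. Each enzyme is built of a large pair of subunits around the active site, an assembly core, a stalk that holds the emerging RNA, and small subunits common to the enzymes. Pol I and Pol III carry in addition permanently bound subunits that resemble Pol II initiation factors. A T cell that starts to grow and divide in response to IL-2 makes more ribosomes and transfer RNA, and the output of Pol I and Pol III is known to be raised by mTORC1 and c-Myc. The libraries hold polyadenylated RNA, so they report the mRNA of the subunits and neither the enzymes' activity nor their products.

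The level of a gene is given as CPM, its reads scaled to a fixed total of reads on genes and corrected by the trimmed mean of M values (TMM). CPM is relative to the whole library, and in bulk RNA fewer cells and less RNA per cell cannot be told apart. Libraries held 16721319 to 34033340 reads on genes, with a median of 24730020. CD8 T cell markers were present in every library, with a lowest value of 374 CPM for Cd3e and of 674 CPM for Cd8a. The lowest values of Cd3d, Cd3g and Cd8b1 were 281.8, 398.6 and 211.5 CPM. Over all libraries Gzmb ranged from 36.7 to 9010 CPM and Prf1 from 11.1 to 686 CPM. The 7 CD8 T cell markers together, Gzmb and Prf1 among them, were at 9392 to 12080 CPM at pH 7.4 with IL-2 and at 2924 to 4298 CPM in the same medium at pH 6.6. The sum does not tell which of the 7 genes changed. Markers of B cells, erythroid cells and fibroblasts did not pass 0.43 CPM in any library, and Ms4a1 and Siglech were at 0 in all 35. Klrb1c, on the NK cell list, ranged from 8.27 to 94.9 CPM while Ncr1 did not pass 0.0694 CPM, and Flt3, Foxp3, Itgam and Cd4 reached 6.4, 5.5, 3.29 and 2.48 CPM. The summed dendritic cell list was 0.98 to 6.4 CPM at pH 7.4 without IL-2 and 0 to 0.123 CPM with IL-2. The myeloid list was at 1.24 to 2.51 and 0 to 0.248 CPM in these groups. The helper T cell list was 2.26 to 5.5 CPM at 0 h and 0.91 to 1.6 CPM at pH 7.4 with IL-2. The summed NK list was 43.0 to 45.8 CPM at pH 7.4 with IL-2, 19.4 to 33.2 CPM at pH 6.6 with IL-2 and 83.4 to 95.0 CPM at 0 h, and the part of these lists in the results was not tested. Library 5 of the 0 h group stood farthest from its group, with a median distance of 0.26 on the log2 scale over all genes tested, against 0.18 for the next library. All 28 members passed the filter on low counts. A gene was called when the adjusted p of edgeR's quasi-likelihood test was under 0.05 over the 13819 genes tested, in a fit of all 35 libraries with the library number as a block. The comparisons draw on the same 7 groups, so those that share a group are not independent.

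With IL-2, culture at pH 6.6 left most polymerase subunits at a lower mRNA level than culture at pH 7.4. Of the 28 members, 23 fell, 2 rose and 3 were not called. Over all genes tested, 40.9% were called lower and 35.4% higher. The median log2 fold change was -0.86 for the members and -0.07 for all genes tested. By class, the medians were -2.11 for Pol I, -0.85 for Pol III, -0.67 for Pol II and -0.33 for the shared subunits. The count of members called stayed between 23 and 25 in every alternative fit, and TMM, RLE and library-total scaling each gave 25 (RLE, relative log expression, is the size factor of DESeq2, a further test for counts).

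**Figure D1:**
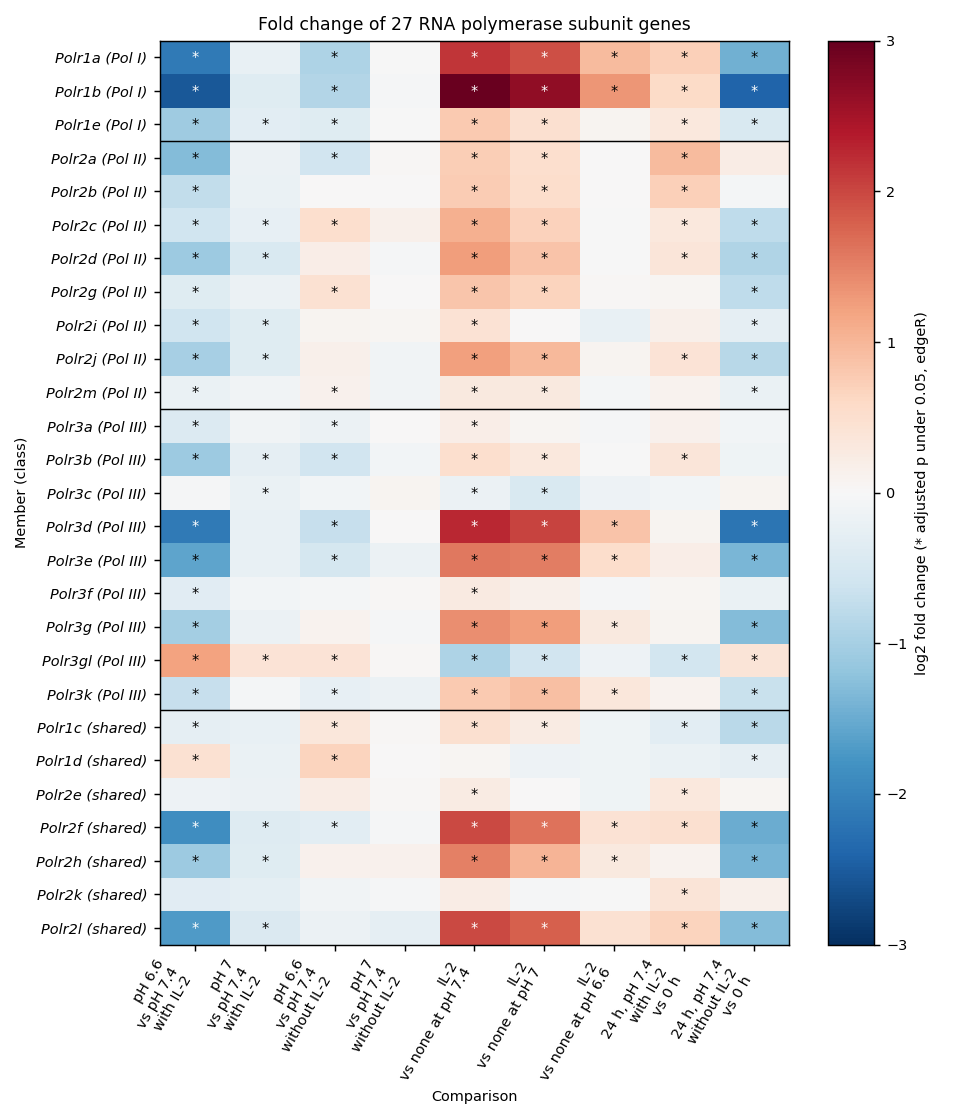
Heat map of the log2 fold change of 27 members (vertical axis, grouped by class) in 9 comparisons (horizontal axis), with red for higher and blue for lower in the condition named first and an asterisk where the adjusted p of edgeR's test was under 0.05. Polr1a and Polr1b are among the darkest cells in the columns for pH 6.6 with IL-2 and for IL-2 at pH 7.4, Polr3gl has the opposite colour to the other Pol III subunits called at pH 6.6 with IL-2, and the column for pH 7 without IL-2 has no asterisk.

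The 3 Pol I subunits all fell. Polr1b (chr2:129100995-129126594, plus strand), the second largest subunit, was at 109, 110.3, 95.2, 97.5 and 91.9 CPM in the 5 libraries at pH 7.4 with IL-2. At pH 6.6 with IL-2 it was at 23.1, 11.99, 11.2, 21.6 and 20.2 CPM. The groups did not overlap, and libraries 2 and 3 at pH 6.6 were lower than the other 3. Its log2 fold change was -2.53 (SE 0.15, adjusted p = 5.77e-16), the lowest among the members and a 5.79-fold difference. Polr1a (chr6:71909053-71984935, plus strand), the largest subunit, was at 143, 134, 116, 115 and 102 CPM at pH 7.4 and at 35.01, 21.4, 21.3, 33.3 and 30.6 CPM at pH 6.6. These groups did not overlap either, with a log2 fold change of -2.11 (SE 0.15, adjusted p = 5.05e-14). Polr1e, part of the heterodimer that resembles an initiation factor, went from 29.3 ± 1.58 to 14.1 ± 1.43 CPM (mean ± SD, n = 5), a log2 fold change of -1.06 (SE 0.07, adjusted p = 1.14e-14). A further 3 Pol I subunits are listed in the tables under symbols that the rule does not take. Of these, Cd3eap (the partner of Polr1e) and Twistnb (a stalk subunit) fell, with log2 fold changes of -2.54 (adjusted p = 4.95e-17) and -1.28 (adjusted p = 1.8e-14), while Znrd1 (a small subunit) was at -0.11 (adjusted p = 0.359) and was not called.

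All 8 Pol II members fell, by less than Polr1a and Polr1b. Polr2a (chr11:69733997-69758637, minus strand), the largest subunit, which carries the C-terminal repeat domain, was at 316, 398, 344, 319.6 and 269 CPM at pH 7.4 with IL-2. At pH 6.6 with IL-2 it was at 129.7, 141, 124, 139 and 132 CPM. The lowest library at pH 7.4 was above the highest at pH 6.6, with a log2 fold change of -1.29 (SE 0.13, adjusted p = 4.7e-11). Polr2d, a subunit of the stalk, was at 37.3, 42.1, 46.2, 45.9 and 53.3 CPM at pH 7.4 and at 17.6, 19.03, 19.7, 24.4 and 25.4 CPM at pH 6.6. The groups did not overlap, and the log2 fold change was -1.09 (SE 0.10, adjusted p = 1.13e-11). Polr2j and Polr2c, subunits of the assembly core, had log2 fold changes of -1.0 and -0.61. Polr2b, the second largest subunit, was at -0.73, and the small subunit Polr2i at -0.59. Polr2g, the partner of Polr2d in the stalk, changed less than Polr2d, at -0.36 (SE 0.10). The least change was in Polr2m, which encodes Gdown1, a regulatory protein bound to part of the Pol II in a cell. It was at 158 ± 4.29 CPM at pH 7.4 and 137 ± 9.07 CPM at pH 6.6 (mean ± SD, n = 5), a log2 fold change of -0.20 (SE 0.06, adjusted p = 0.00252), and its call was lost without library 1 or library 2 of each group. Exons of Polr2c, Polr2i and Polr2j overlap genes of the opposite strand (Dok4, Tbcb and Lrwd1) over 18.1%, 26.8% and 15.9% of their bases. The setting for strand in the counting is not given in the sources used here. Reads in these stretches may have been left out as ambiguous, and how they were assigned is not known.

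Of the 10 Pol III members, 8 fell, Polr3gl rose and Polr3c was not called. Polr3d (chr14:70438757-70443447, minus strand), part of the heterodimer that resembles an initiation factor, was at 32.4, 34.5, 30.9, 37.1 and 36.3 CPM at pH 7.4 with IL-2 and at 8.61, 6.56, 4.28, 9.37 and 10.9 CPM at pH 6.6. The highest library at pH 6.6 was below the lowest at pH 7.4, and the log2 fold change was -2.12 (SE 0.16, adjusted p = 1.37e-13). Its partner Polr3e was at -1.58 (SE 0.12). Polr3a (chr14:24448696-24487058, minus strand), the largest subunit, changed much less than Polr1a or Polr2a. It was at 59.7, 66.1, 62.5, 58.4 and 55.95 CPM at pH 7.4 and at 43.3, 48.2, 44.1, 46.01 and 46.1 CPM at pH 6.6, with no overlap and a log2 fold change of -0.41 (SE 0.07, adjusted p = 2.39e-06). Polr3b, the second largest, was at -1.1, the small subunit Polr3k at -0.70, and Polr3f, of the initiation trimer, at -0.35. Polr3c, also of this trimer, was at 95.5 ± 4.35 CPM at pH 7.4 and 92.5 ± 3.91 CPM at pH 6.6 (mean ± SD, n = 5), a log2 fold change of -0.05 (SE 0.06, adjusted p = 0.52). Crcp, a Pol III subunit of the stalk whose symbol the rule does not take, rose by 0.41 on the log2 scale (adjusted p = 3.22e-06).

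The 7 shared subunits moved in different ways, with 4 lower, 1 higher and 2 not called. Polr2f (chr15:79141009-79151774, plus strand), found in all 3 enzymes, was at 43.9, 46.2, 45.9, 57.5 and 62.8 CPM at pH 7.4 with IL-2 and at 12.4, 13.2, 9.98, 18.8 and 16.1 CPM at pH 6.6. The groups did not overlap, and the log2 fold change was -1.86 (SE 0.12, adjusted p = 5.66e-15). Polr2l (chr7:141471860-141475132, minus strand), a further subunit of all 3 enzymes, was at 9.004, 8.64, 11.3, 10.01 and 11.7 CPM at pH 7.4 and at 2.71, 2.52, 3.06, 3.62 and 3.79 CPM at pH 6.6. All 5 values at pH 6.6 were below those at pH 7.4, with a log2 fold change of -1.7 (SE 0.16, adjusted p = 1.98e-11). Polr2h was at -1.09 (SE 0.10) and was called. Polr2e and Polr2k, at -0.16 (SE 0.10) and -0.33 (SE 0.16), were not called, and Polr2k rested on few reads, between 27 and 76 per library. The subunits that Pol I and Pol III have in common for their assembly core went apart. Polr1c fell by 0.28 on the log2 scale (SE 0.09), a call lost without library 2 of each group. Polr1d (chr5:147077050-147111597, plus strand), its partner, rose. It was at 96.3, 99.6, 108, 123.3 and 144 CPM at pH 7.4 and at 142, 157, 157, 155 and 167 CPM at pH 6.6. The highest library at pH 7.4 lay within the range at pH 6.6, and the log2 fold change was 0.46 (SE 0.10, adjusted p = 0.000208), higher in 5 of 5 same-numbered pairs. Not all 50-base windows of these transcripts are unique in the annotated transcripts. The unique share was 73.9% for Polr2c, 78.4% for Polr2k, 79.0% for Polr2l, 80.3% for Polr2i and 88.5% or more for the others. Windows shared with an overlapping gene of the opposite strand, such as Dok4 for Polr2c and Tbcb for Polr2i, also count as not unique here. Copies elsewhere can make a level too low, and the shares do not tell these cases apart.

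**Figure D2:**
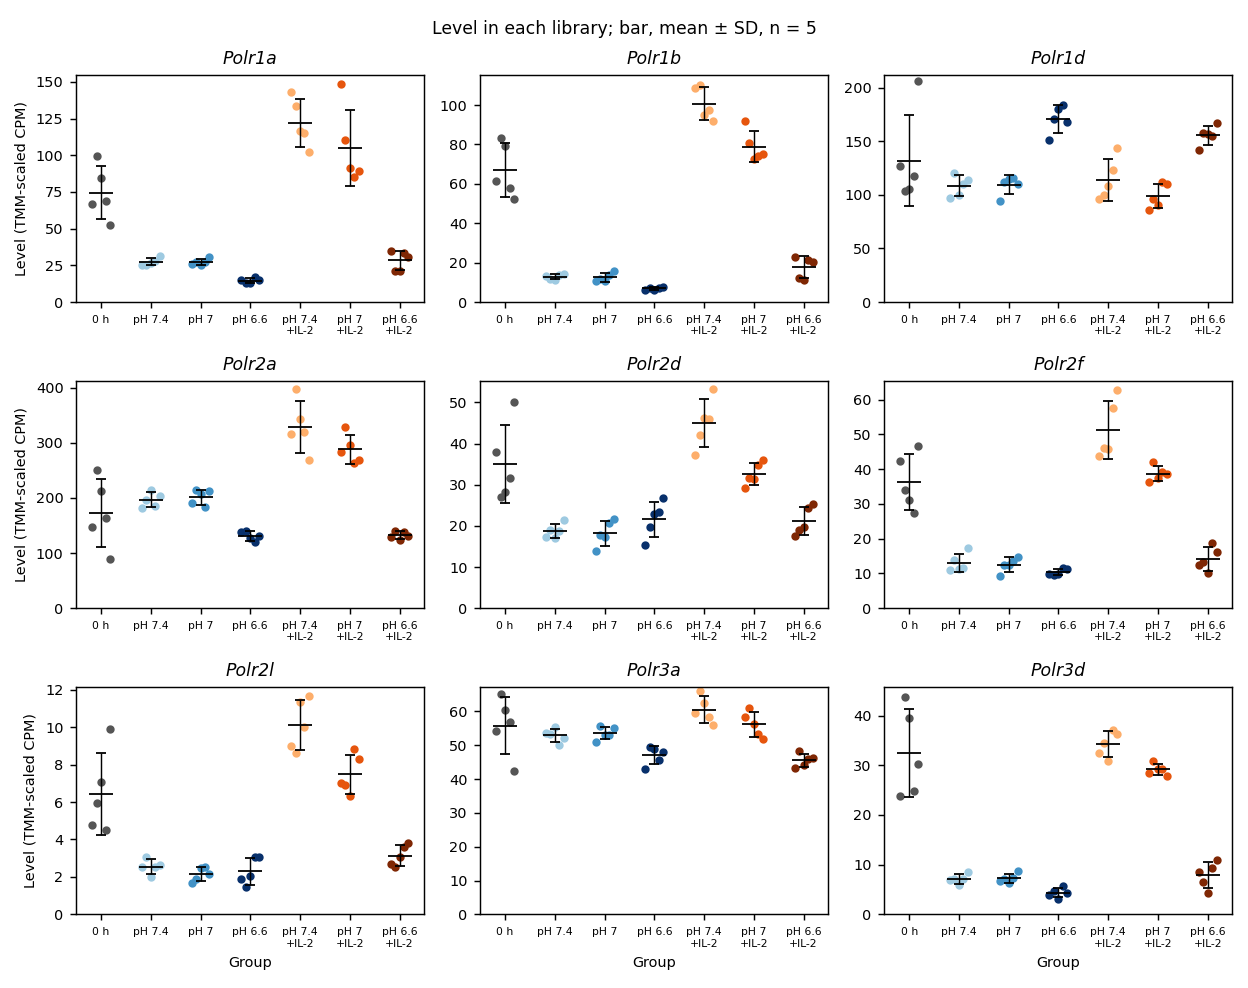
Level in TMM-scaled CPM (vertical axis, from 0) of 9 members in each of the 35 libraries, by group (horizontal axis), with points for libraries and bars for the mean ± SD of 5. In Polr1a, Polr1b, Polr2f, Polr2l and Polr3d the 5 libraries at pH 7.4 with IL-2 lie above all libraries at pH 6.6 and above all 24 h libraries without IL-2, while Polr1d at pH 6.6 lies above pH 7.4 without IL-2 and overlaps it with IL-2.

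Polr3g and Polr3gl are paralogs, and a Pol III enzyme holds the product of 1 or the other in its initiation trimer. They moved in opposite directions. Polr3g (chr13:81673843-81711013, minus strand) was at 30.2, 31.4, 31.4, 27.02 and 27.3 CPM at pH 7.4 with IL-2 and at 17.1, 12.5, 14.9, 15.5 and 13.6 CPM at pH 6.6. No library at pH 6.6 reached the lowest at pH 7.4, and the log2 fold change was -1.01 (SE 0.10, adjusted p = 2.62e-11). Polr3gl (chr3:96577872-96594181, minus strand) was at 13.5, 13.7, 16.1, 14.9 and 15.7 CPM at pH 7.4 and at 37.03, 31.3, 35.7, 33.4 and 32.6 CPM at pH 6.6. Here every library at pH 6.6 was above every library at pH 7.4, with a log2 fold change of 1.2 (SE 0.10, adjusted p = 9.9e-13). At 0 h Polr3g was at 26.8, 26.9, 30.8, 27.1 and 27.1 CPM and Polr3gl at 25, 18.7, 18.4, 19.04 and 26.7 CPM. Without IL-2 at pH 7.4 Polr3g was at 13.3, 11.03, 9.95, 12.7 and 9.46 CPM and Polr3gl at 30.2, 30.8, 24.2, 27.4 and 28.6 CPM. The 2 genes thus stood in opposite order with and without IL-2 at this pH on the CPM scale. Divided by exon length in kilobases, the level of Polr3g was below that of Polr3gl in all 7 groups, and the ratio of the levels per kilobase with IL-2 was 0.815 ± 0.103 at pH 7.4, 0.546 ± 0.0667 at pH 7 and 0.175 ± 0.0122 at pH 6.6 (mean ± SD, n = 5). The ranges, 0.704 to 0.933, 0.483 to 0.647 and 0.162 to 0.189, did not overlap. The ratio was 0.538 ± 0.112 at 0 h and, without IL-2, 0.163 ± 0.0226 at pH 7.4, 0.157 ± 0.0355 at pH 7 and 0.131 ± 0.01304 at pH 6.6.

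**Figure D3:**
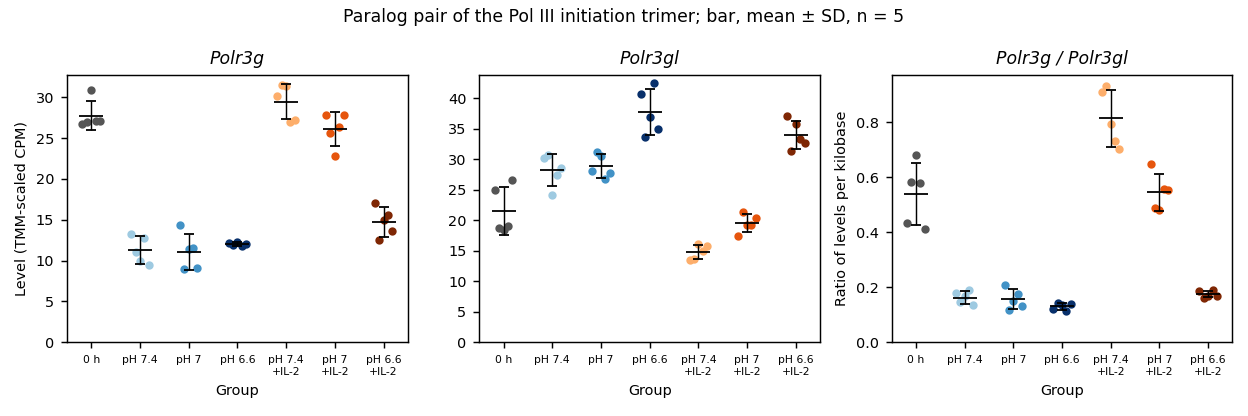
Level in TMM-scaled CPM of Polr3g and of Polr3gl, and the ratio of their levels per kilobase of exon (vertical axes, from 0), in each library by group (horizontal axes), with bars for the mean ± SD of 5. With IL-2, Polr3g falls and Polr3gl rises from pH 7.4 to pH 6.6, and the ratio at pH 6.6, 0.162 to 0.189, lies close to the ratios without IL-2.

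The promoter stretches of this pair are shown because its members differ in the E-box CACGTG, the motif best known as a binding site of c-Myc and its partner Max, which reads the same on both strands. RefSeq windows (GRCm38.p6) of 250 bases before to 50 after the start were at hand for 22 of the 28 members. Polr2d, Polr2g, Polr2k, Polr3a and Polr3d were among those without one. The motif was in the window of 4 of the 22, or 18.2%, and in 2187 of 27025 genes with a window, or 8.09%. The 4 were Polr3gl, Polr3c, Polr3e and Polr2h, with the first base of the motif at -194, -237, 6 and 24 from the start. Among them, Polr3gl rose, Polr3e and Polr2h fell and Polr3c was not called at pH 6.6 with IL-2. Polr3g was taken for comparison after its values were seen. Both stretches below run from -250 to -132 before the start, hold no annotated exon, lie on the minus strand and are written 5′ to 3′, with the motif in capitals. That of Polr3gl is chr3:96594313-96594431 and that of Polr3g, whose stretch does not hold the motif, is chr13:81711145-81711263.
Polr3gl: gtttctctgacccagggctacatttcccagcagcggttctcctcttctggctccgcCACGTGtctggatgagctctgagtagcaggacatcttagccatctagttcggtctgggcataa
Polr3g: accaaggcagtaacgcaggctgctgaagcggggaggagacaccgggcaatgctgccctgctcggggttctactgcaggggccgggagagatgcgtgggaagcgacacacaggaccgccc

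The milder step to pH 7 gave fewer calls with IL-2, in a comparison that shares the libraries at pH 7.4 with the one above. Relative to pH 7.4, 10 members fell, 1 rose and 17 were not called, while over all genes 9.83% were called lower and 9.15% higher. The largest fall was in Polr2d. It was at 29.3, 31.6, 31.4, 34.9 and 36.04 CPM at pH 7 with IL-2, all below the 5 values at pH 7.4 given above, with a log2 fold change of -0.46 (SE 0.10, adjusted p = 0.00121). Polr3gl was the member that rose, at 17.4, 21.4, 19.1, 19.1 and 20.4 CPM and a log2 fold change of 0.40 (SE 0.10, adjusted p = 0.00442), and its groups did not overlap. The other members that fell were Polr1e, Polr2c, Polr2i, Polr2j, Polr3b, Polr3c, Polr2f, Polr2h and Polr2l, with log2 fold changes from -0.43 to -0.20. Polr1a and Polr1b, at -0.22 (SE 0.14, adjusted p = 0.293) and -0.35 (SE 0.14, adjusted p = 0.0781), were not called. Polr1e, Polr2d, Polr2j and Polr2h kept their call when each library number was left out in turn, and the other 7 members called, Polr3gl included, lost it at least once (Polr3gl without library 2). The number called depended on the fit more than in any other comparison. It was 7 without the replicate block, 6 without library 2, 5 without library 3 and 20 with the 10 libraries compared alone, against 11. Over all genes, the calls in these fits were 1660, 1374, 1283 and 4388. The main fit called 1359 genes lower and 1264 higher. Without IL-2, no member was called between pH 7 and pH 7.4, also by DESeq2. In edgeR's test 0 members had an unadjusted p under 0.05, against 8.13% of all genes tested. Over all genes 1.36% were called higher and 0.318% lower in this comparison, and the members' log2 fold changes ran from -0.27 to 0.14.

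Without IL-2, pH 6.6 went with changes in both directions. Relative to pH 7.4, 11 members fell, 6 rose and 11 were not called, and over all genes 35.4% were called lower and 31.6% higher. The 3 Pol I members fell here too. Of the further 3 Pol I subunits under symbols that the rule does not take, 2 fell and 1 rose. Polr1a was at 25.4, 25.5, 26.7, 27.9 and 31.2 CPM at pH 7.4 without IL-2 and at 14.8, 12.9, 13.1, 16.9 and 14.8 CPM at pH 6.6. Polr1b was at 13.1, 11.8, 11.3, 13.8 and 14.2 CPM and 6.27, 7.25, 6.09, 7.32 and 7.66 CPM. Neither gene's groups overlapped, and the log2 fold changes were -0.92 (SE 0.16, adjusted p = 5.02e-06) and -0.89 (SE 0.16, adjusted p = 1.64e-05). Among Pol III subunits, Polr3d at -0.70, Polr3b at -0.58, Polr3e at -0.54, Polr3k at -0.25 and Polr3a at -0.17 fell, and Polr3gl rose by 0.42 on the log2 scale. Polr2a and Polr2f also fell, at -0.58 and -0.31. Polr2c, Polr2g and Polr1c rose by 0.49, 0.45 and 0.33, although the same genes were called lower at pH 6.6 with IL-2. Polr1d rose with and without IL-2. It was at 96.9, 121, 100.3, 110.0 and 114 CPM at pH 7.4 without IL-2 and 151, 170.5, 180.3, 184 and 168 CPM at pH 6.6, with no overlap and a log2 fold change of 0.66 (SE 0.10, adjusted p = 1.8e-06). Polr2m, also called lower at pH 6.6 with IL-2, was called higher here at 0.14. This direction reversed with library totals in place of TMM, under which Polr1c also lost its call. Calls were also lost for Polr3a without library 1, 3 or 4, for Polr2f without library 2, 3 or 5, for Polr3k without library 3 or 4, and for Polr2m without any library but 4. The split of higher and lower calls depended on the scaling, at 6 and 11 with TMM, 9 and 9 with RLE, and 4 and 12 with library totals.

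**Figure D4:**
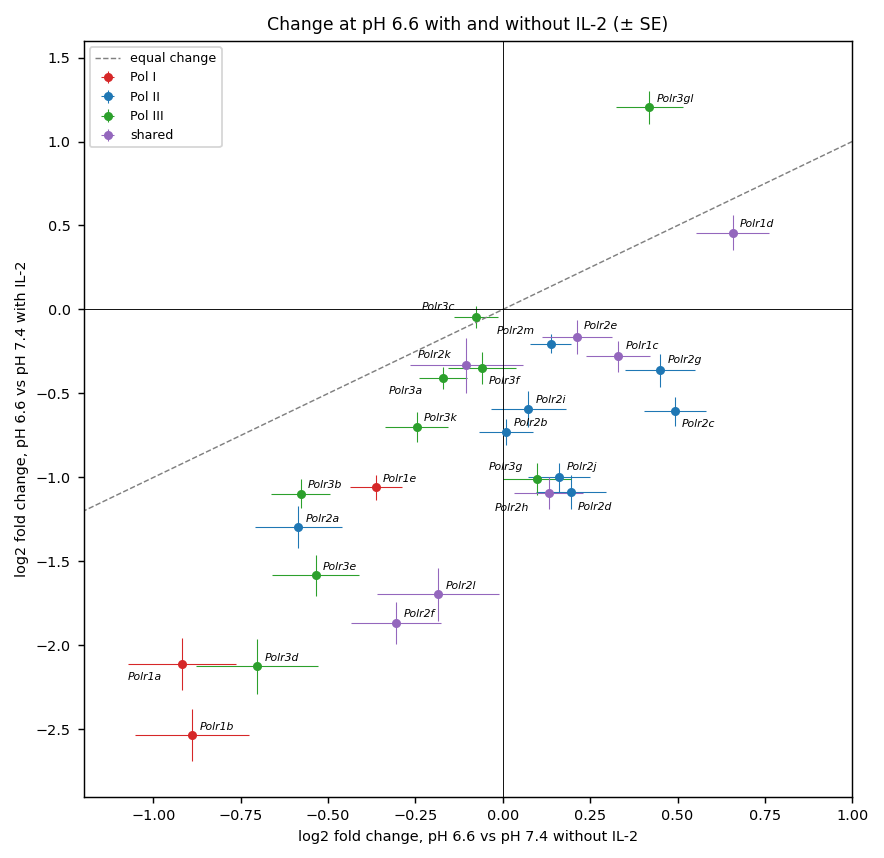
Log2 fold change for pH 6.6 over pH 7.4 with IL-2 (vertical axis) plotted on that without IL-2 (horizontal axis) for 27 members, coloured by class, with bars of 1 SE and a dashed line where both are equal. Most members lie below the dashed line, Polr3gl lies farthest above it, and Polr2c, Polr2g and Polr1c are among the members right of 0 and below 0.

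Whether the change at pH 6.6 depended on IL-2 was tested as an interaction, the log2 fold change with IL-2 minus that without it. It was called below 0 for 23 members and above 0 for Polr3gl, while over all genes 32.8% were called below 0 and 34.3% above 0. All 3 Pol I and all 8 Pol II members were among the 23, and the 4 not called were Polr3c, Polr3f, Polr1d and Polr2k. Polr1b had the lowest value, -1.64 (SE 0.22, adjusted p = 8.57e-08), followed by Polr2f at -1.56, Polr2l at -1.51 and Polr3d at -1.42. Polr3gl was at 0.78 (SE 0.14, adjusted p = 8.12e-06). Polr3a, at -0.24 (SE 0.10, adjusted p = 0.0303), was called here but not after library 1, 2, 3 or 4 of each group was left out. Calls were also lost for Polr2e without library 1, 2 or 4, for Polr3k without library 1 and for Polr2m without library 2. For Polr1d the interaction was -0.20 (SE 0.15, adjusted p = 0.232), so that a difference between its rises with and without IL-2 was not detected. The same contrast states how the response to IL-2 differed from pH 7.4 to pH 6.6.

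Most subunit mRNAs were higher with IL-2 than without it at pH 7.4. Against cells without IL-2, 24 members rose, Polr3gl and Polr3c fell, and Polr1d and Polr2k were not called. Over all genes 39.3% were called higher and 41.1% lower. Polr1b had the largest rise, from the values without IL-2 given above to 109, 110.3, 95.2, 97.5 and 91.9 CPM, with a log2 fold change of 2.98 (SE 0.16, adjusted p = 7.52e-18) and a 7.86-fold difference. Polr3d went from 6.95, 7.03, 5.93, 7.05 and 8.52 CPM to the levels at pH 7.4 with IL-2 given above, with a log2 fold change of 2.27 (SE 0.16, adjusted p = 1.75e-14). Neither gene's groups overlapped. Polr1a, Polr2f and Polr2l followed with log2 fold changes from 1.97 to 2.15. Polr3a rose by 0.19, a call lost without library 1 or 2 of each group, as were those of Polr2e (also without library 4) and Polr3f, and that of Polr3c was lost without library 3. Polr3gl fell by 0.93 on the log2 scale (SE 0.10, adjusted p = 2.79e-10). At pH 7, 20 members rose and 2 fell, against 37.6% and 39.5% of all genes, with Polr1b at 2.66 and Polr3gl at -0.57. There Polr1c lost its call without library 1, 2 or 4 and Polr3b without library 1.

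At pH 6.6, 9 members rose with IL-2 and 0 fell, against 13.2% and 10.6% of all genes called higher and lower. Not 1 of the 8 Pol II subunits was among them. In edgeR's test 12 of the 28 members had an unadjusted p under 0.05, against 35.8% of all genes tested. Among these 12, those not called were Polr2i and Polr3c, lower with IL-2 at -0.23 and -0.14, and Polr2l, higher at 0.46. Polr2a was at 139, 140.0, 127, 119.5 and 130.4 CPM without IL-2 and 129.7, 141, 124, 139 and 132 CPM with IL-2 at this pH. The groups overlapped, and the log2 fold change was 0.02 (SE 0.12, adjusted p = 0.918). At pH 7.4 the same gene was at 182, 196, 215, 186 and 204 CPM without IL-2, below all 5 libraries with IL-2. Subunits of Pol I and Pol III made up 7 of the 9 that rose. Polr1b was at 1.33 (SE 0.16, adjusted p = 1.72e-07), Polr1a at 0.96, Polr3d at 0.85, Polr3e at 0.53, Polr3k at 0.34 and Polr3g at 0.28. Polr2f and Polr2h, the shared subunits called, were at 0.43 and 0.28. The calls of Polr3g, Polr2h and Polr2f were lost without 1 library number or another (1, 3 or 4 for Polr3g, 3, 4 or 5 for Polr2h, 4 or 5 for Polr2f). The groups with and without IL-2 at pH 6.6 did not overlap for Polr1a, Polr1b, Polr3g and Polr3k. They overlapped for Polr3d, Polr3e, Polr2f and Polr2h. How often these groups overlapped over all genes tested was not counted, so both lists are a description.

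Relative to 0 h, 24 h at pH 7.4 with IL-2 gave 14 members higher and 2 lower, against 29% and 30.9% of all genes. This comparison and the one without IL-2 share the 0 h libraries. Polr2a rose most, at 148, 250, 213, 164 and 88.98 CPM at 0 h and a log2 fold change of 0.95 (SE 0.12, adjusted p = 7.72e-08). Library 5 at 0 h was the lowest of the 35 for Polr2a, and the values at 24 h with IL-2 were all above those at 0 h. Polr1a and Polr1b rose by 0.71 and 0.58, and Polr3gl and Polr1c fell, at -0.54 and -0.32. After 24 h at pH 7.4 without IL-2, 19 members had fallen and Polr3gl had risen by 0.39, against 38.3% and 36.9% of all genes. Polr1b was at 61.7, 83.3, 79.2, 57.8 and 52.5 CPM at 0 h, and its log2 fold change of -2.4 (SE 0.15, adjusted p = 3.66e-15) was the lowest. Polr3d followed, at 23.8, 43.8, 39.5, 24.9 and 30.3 CPM at 0 h and a log2 fold change of -2.2 (SE 0.16, adjusted p = 8.46e-14). For both genes the groups did not overlap. Without library 5 of each group, 19 members were called with IL-2 and 21 without IL-2, against 16 and 20. Calls were lost with IL-2 for Polr2k without library 1, 2 or 4 and for Polr2e without library 4, and without IL-2 for Polr2i and Polr1d without library 1 or 5 and for Polr2m without library 2. With library totals in place of TMM, the calls against 0 h without IL-2 were 3 higher and 16 lower, against 1 higher and 19 lower with TMM.

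The subunits work with factors that recruit, assemble and release the enzymes, and these were described from lists by their function. The shares of all genes called in this comparison, 40.9% lower and 35.4% higher, are the background. At pH 6.6 with IL-2 against pH 7.4 with IL-2, 13 of 18 Pol II general initiation factors fell and 0 rose (median -0.56), with Gtf2h4 and Gtf2h3 of TFIIH lowest at -1.43 and -1.21. Of 9 assembly factors of the polymerases, 7 fell and 2 rose (median -0.78). The ATPases Ruvbl1 and Ruvbl2, which act in a chaperone complex, fell most. Ruvbl1 went from 54.8 ± 4.25 to 11.9 ± 2.39 CPM (mean ± SD, n = 5), a log2 fold change of -2.21 (adjusted p = 5.65e-19), and Ruvbl2 was at -1.96. Rpap2 and Gpn3 rose by 0.88 and 0.26.

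Factors of Pol I and Pol III were divided. Of 8 Pol I factors tested, for initiation, termination or silencing, 4 rose and 3 fell (median 0.02). Ubtf, which binds ribosomal DNA, and Rrn3, which brings Pol I to it, fell, at -1.01 and -0.62, whereas Baz2a, known for silencing ribosomal DNA, and Taf1d rose by 1.56 and 1.04. Baz2a went from 151 ± 14.9 to 446 ± 54.4 CPM (adjusted p = 5.25e-16). Of 15 Pol III initiation factors, 7 fell and 4 rose (median -0.13), with Snapc5 and Gtf3c6 at -1.48 and -1.36 and Gtf3c1 and Gtf3c3 at 0.34 and 0.31. Maf1, the repressor of Pol III, rose from 56.4 ± 3.07 to 139 ± 7.92 CPM (mean ± SD, n = 5), a log2 fold change of 1.3 (adjusted p = 7.43e-16). At pH 7.4 Maf1 was lower with IL-2 than without it, at -1.33. Without IL-2 it rose by 0.23 from pH 7.4 to pH 6.6. Of 22 pausing and elongation factors of Pol II, 10 fell and 7 rose (median -0.18), with Leo1 and Ssrp1 at -1.74 and -1.63 and Supt4a and Ell2 at 1.67 and 0.84. Of 5 genes of mitochondrial transcription, 3 fell and 1 rose, among them Polrmt, the mitochondrial RNA polymerase, at -0.60, Tfam at -0.85 and Tfb2m at 0.31. From pH 7.4 to pH 6.6 without IL-2, where 31.6% of all genes were called higher and 35.4% lower, 13 of the 22 pausing and elongation factors rose and 1 fell (median 0.25). Of the Pol II general initiation factors 6 rose and 4 fell (median 0.09), and of the assembly factors 4 rose and 3 fell (median 0.02). Of the Pol III initiation factors 7 rose and 4 fell (median 0.23), and of the 8 Pol I factors 4 rose and 2 fell (median 0.17).

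**Figure D5:**
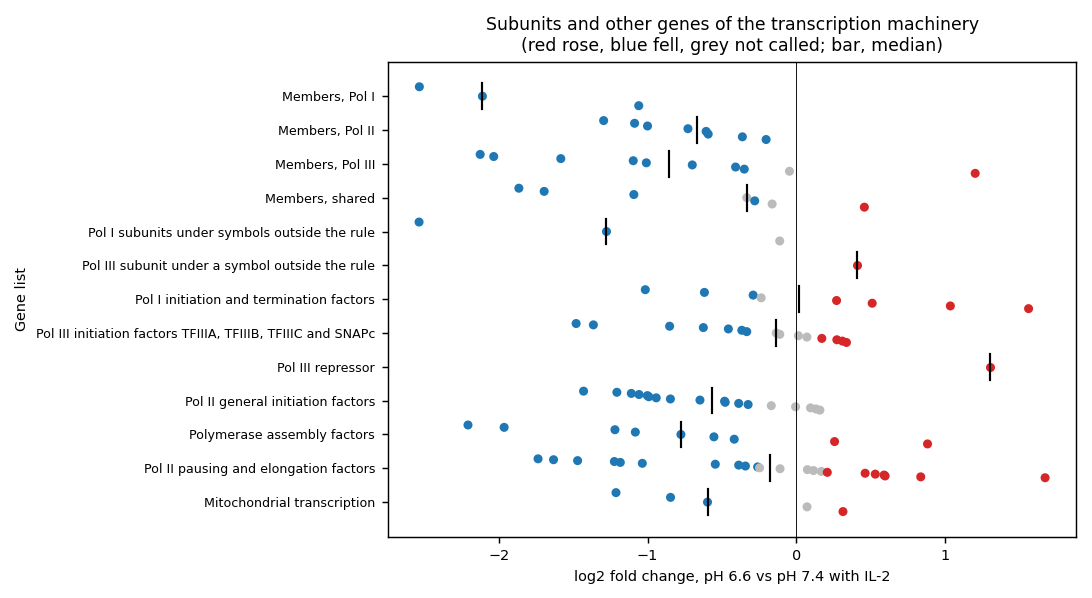
Log2 fold change for pH 6.6 over pH 7.4 with IL-2 (horizontal axis) of each member by class and of each gene on the lists of other transcription factors and subunits (vertical axis), with red points for genes that rose, blue for genes that fell, grey for genes not called, and a bar at each median. The Pol I members and the assembly factors lie mostly left of 0, with medians of -2.11 and -0.78, while the Pol I factors spread to both sides and Maf1 lies at 1.3.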

How the data were processed

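RNA of CD8+ T cells was sequenced in 35 libraries with a stranded protocol for polyadenylated RNA, as single reads. The authors deposited whole-number counts per gene, not normalized. The submitters' processing notes name cutadapt 1.8, STAR 2.5.2b, HTSeq 0.6.1 and GRCm38. The read length and the strand setting are not given in the sources used here. Left out of the library sizes were reads aligned to several places (37.1% at the median library), reads outside genes (7.42%) and ambiguous reads (0.922%), so genes with near-identical copies can be too low. Symbols and coordinates are those of GENCODE M21, and 48349 genes had a symbol.

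In R 4.3.3, edgeR 4.0.16 kept 13819 genes (filterByExpr, minimum count 10), scaled them by TMM and fitted a robust quasi-likelihood model to all 35 libraries, with group and replicate number as terms. The Benjamini-Hochberg adjustment ran over all genes tested. The common biological coefficient of variation was 0.12. The block was used because the statistics of the study are paired. Libraries of the same number deviated together. For pH 6.6 and 7.4 with IL-2, the correlation of their deviations from the mean of the group was 0.198 to 0.416, and 95 of 105 such pairs over all groups had r over 0.1. No libraries of a group agreed within sampling noise (lowest chi-square per degree of freedom 6.65 over 70 pairs). The scripts were tested on simulated data.

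The members and lists were chosen with earlier results of these data known. Library values are given for the 2 members per class with the largest change at pH 6.6 with IL-2, the largest subunits, the pair Polr3g and Polr3gl, the extreme interactions and members moving against their class. Of the other genes, at most 2 that rose most and 2 that fell most per list are named (mean log2 CPM 3 or more). Proteins were not analysed here, and the values of 1 member, which is included in the counts and medians, are not reported here. Alternatives were RLE, library totals, DESeq2 1.42.0, other filters, only the groups compared, no block, and leaving out each replicate number.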

Additional observations from a re-analysis of the deposited data

Results flagged for a closer look

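Among 77 groups of 5 values (11 members in 7 groups), 3 held a library farther from the rest than Dixon's 95% limit allows, and chance gives about 1 in 20 such groups. Polr1d was at 206 CPM in library 5 at 0 h, above the other 4 libraries of the group. Polr1d was also low, at 93.9 CPM, in library 1 at pH 7 without IL-2. Polr3g was at 30.8 CPM in library 3 at 0 h, above the other 4 libraries of the group.

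The effect of pH 6.6 differed between cells with and without IL-2 for 10 of the 11 members whose library values are given, by edgeR's quasi-likelihood test of the interaction. Over all genes tested, 32.8% were called below 0 and 34.3% above 0, and these members were chosen in part for large changes in the same contrasts, so the count is a description. On the log2 scale it was -1.19 for Polr1a, -1.64 for Polr1b, -0.71 for Polr2a, -1.28 for Polr2d, -1.56 for Polr2f and -1.51 for Polr2l. For the Pol III subunits it was -0.24 for Polr3a, -1.42 for Polr3d, -1.11 for Polr3g and 0.78 for Polr3gl. The call of Polr3a was lost without library 1, 2, 3 or 4 of each group. Every same-numbered pair had the same direction for each of these 10 genes.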

How the results depend on the processing

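For pH 7 against pH 7.4 with IL-2, where 11 members were called, the count was 6 with library totals, 7 without the filter on low counts, 7 without the replicate block and 20 in a fit of only the groups compared, and leaving out 1 replicate number gave 5 to 13. Over all genes, these fits called 2525, 1888, 1660 and 4388 genes, and 1283 to 2425 with 1 replicate number left out. The main fit called 1359 genes lower and 1264 higher. The paired and unpaired fits changed the count of members called by less than 1.5 times in the other comparisons, with 25 members called at pH 6.6 with IL-2 in both. In the other 9 comparisons the count moved by less than 1.5 times under every alternative, and all 11 members whose library values are given kept their direction and call at pH 6.6 with IL-2. Library totals shifted the median of all genes by -0.15 (pH 6.6 without IL-2), -0.16 and -0.12 (IL-2 at pH 7.4 and at pH 7) and 0.23 (interaction) on the log2 scale, so small changes such as those of Polr2m, Polr1c, Polr2e and Polr3a depend on the scaling, and Polr2m reversed without IL-2. The cause was not tested. Polr2k and Polr2l had the fewest reads, with medians of 51 and 78 per library, which limits what can be detected for them.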

Other observations

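Levels of different subunits were compared per kilobase of exon, in CPM per kilobase. Polr2m was the highest member in all 7 groups, with 64.96 ± 1.77 at pH 7.4 and 56.5 ± 3.74 at pH 6.6 in cells given IL-2 (mean ± SD, n = 5). The lowest at pH 7.4 with IL-2 was Polr2k, at 3.95 ± 0.558, and the highest level was 16.4 times the lowest in that group.

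The levels of some subunits of the same enzyme were also set against each other. The ratio of Polr1c to Polr1d per kilobase, the assembly core of Pol I and Pol III, was 0.608 ± 0.0317 at pH 7.4 and 0.365 ± 0.0302 at pH 6.6 in cells given IL-2, and without IL-2 it was 0.454 ± 0.0297 and 0.361 ± 0.0331 (mean ± SD, n = 5). The ratio of Polr3d to Polr3c, which belong to different subcomplexes of Pol III, was 0.425 ± 0.0245 at pH 7.4 with IL-2, 0.102 ± 0.0349 at pH 6.6 in the same medium and 0.0784 ± 0.0107 at pH 7.4 without IL-2. At pH 6.6 with IL-2, Polr3d fell most among the Pol III members and Polr3c was not called, so their ratio largely restates the fall of Polr3d. These ratios were not tested.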
